A study of Danio rerio with 8 samples.

Results

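The genes described here encode the lysosomal enzymes that break down glycosaminoglycans. They were taken from the deposited count table by symbol, from a list of 10 names (arsb, galns, gns, ids, idua, sgsh, naglu, gusb, hgsnat and arsg). 9 of the 24221 genes in the table matched, 8 of them letter for letter and the gene for arylsulfatase B as ARSB in capitals. No row carried the name gns. The table lists a pair of zebrafish copies instead, gnsa and gnsb, which are described beside the members and not counted among them.

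Glycosaminoglycans are long sugar chains, most of them sulfated, that hang on proteoglycan core proteins or, in the case of hyaluronan, stand alone. After uptake they are taken apart in the lysosome from one end, sugar by sugar, and each sulfate group has to be removed before the sugar under it can be cut off. In mammals the loss of any of several of these enzymes leaves partly digested chains in the lysosome, a group of storage disorders called mucopolysaccharidoses, and macrophages, which take up much material, are among the cells that fill with them. The roles given below are known mainly from human and mouse enzymes.

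Polyadenylated RNA was measured in GFP-positive cells that were sorted from zebrafish larvae of the TL strain carrying GFP under the mpeg promoter, which is active in macrophages and microglia. 4 libraries came from rraga mutants and 4 from their wild-type siblings, all at 6 days post fertilization (dpf), raised in water with methylene blue and PTU, and scored as mutant or wild type under a confocal microscope at 4 and 5 dpf. rraga encodes RagA, a small GTPase that brings the growth regulator mTORC1 to the lysosome when amino acids are present. The sample titles call the libraries biological replicates. The rraga allele and the number of larvae behind each library are not stated in the labels. The p-values thus measure the spread between these libraries, and how far it reflects a spread between animals is not known. Libraries carry the column numbers 1, 2, 4 and 5 in each genotype, and values below are listed in that order.

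The libraries held 24940664 to 30911560 counts in mutants and 25530526 to 29147340 in siblings. rraga itself (ENSDARG00000104149) stood at 193, 220, 195 and 189 CPM (counts scaled to a common library size) in mutants and at 129, 135, 137 and 114 CPM in siblings, higher in mutants by an exact two-sided permutation test (p = 0.0286, the smallest that 4 against 4 libraries allow). All 18 listed markers of the macrophage lineage were detected. They summed to 1.29% to 1.66% of counts in mutants and 1.17% to 1.32% in siblings, and 3 were higher and 9 lower in mutants. Of the most abundant pair, ccr9a, for a chemokine receptor, was at 5486 ± 140 against 3899 ± 738 CPM (SD, n = 4), and lcp1, for the actin-bundling protein plastin-2, at 2468 ± 227 against 3846 ± 323 CPM. mpeg1.1, named after its values were seen, was at 65.5 ± 23.7 against 231 ± 13.2 CPM. Of 9 tested microglia markers 2 were higher and 4 lower, with sums of 0.499% to 0.634% in mutants and 0.599% to 1.15% in siblings. Skeletal muscle markers took 0.534%, 0.0656%, 0.0896% and 0.298% of counts in the mutant libraries and 0.461% to 0.636% in siblings (1 of 18 lower). Epithelial markers took 0.0889% to 0.195% and 0.141% to 0.233% (2 higher and 8 lower of 22). Of their most abundant pair, anxa1a was higher without overlap (456 ± 165 against 86.9 ± 12.5 CPM), and icn did not pass (256 ± 149 against 321 ± 71.0 CPM). Neutrophil markers took 0.221% to 0.471% and 0.168% to 0.508% (1 higher and 2 lower of 10). Of their most abundant pair, lect2l was higher without overlap (1145 ± 345 against 151 ± 42.4 CPM), and mmp9 did not pass (797 ± 342 against 1339 ± 543 CPM). The 6 further lists of other cells each stayed at or under 0.182% of counts in every library. No listed marker that the table holds was at 0 in all libraries.

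To find how the degrading enzymes differed between the genotypes, mutants were compared with siblings. galns, naglu and hgsnat were higher in mutants, by 2.35-fold, 1.90-fold and 1.49-fold, and ids was lower, by 0.77 on the log2 scale. The remaining 5 members, gusb, ARSB, sgsh, idua and arsg, did not pass the test. gnsb and gnsa, the copies of the gene missing under its own name, were both higher, by 4.31-fold and 2.05-fold. Enzymes that act on the same chain, such as naglu and ids on heparan sulfate, thus differed in opposite directions. Under 18 alternative settings both kept their direction, but naglu passed in only 14 of them and ids in only 11.

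In numbers, 3 of the 9 members rose and 1 fell at an adjusted p under 0.05 (quasi-likelihood test of edgeR, Benjamini-Hochberg adjustment over all 16086 tested genes). Over all tested genes 28.4% passed, 14.5% higher and 13.9% lower. In the fit that blocks on library number 3 members rose and 3 fell (ids, gusb and ARSB), where 17.8% of all tested genes were higher and 16.6% lower. Every member was tested and had at least 20 counts in every library. The median log2 fold change (mutant over sibling throughout) of the members was 0.57, beside -0.09 for all tested genes. In 4 members all mutant libraries lay above all sibling libraries, and in 2 all lay below, where 31.4% of all tested genes showed such a separation, 15.7% with the mutants above and 15.7% with them below. In sorted bulk RNA, a higher or a lower level can come from a changed share of cells of a type or from a changed level per cell. These cannot be told apart.

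**Figure D1:**
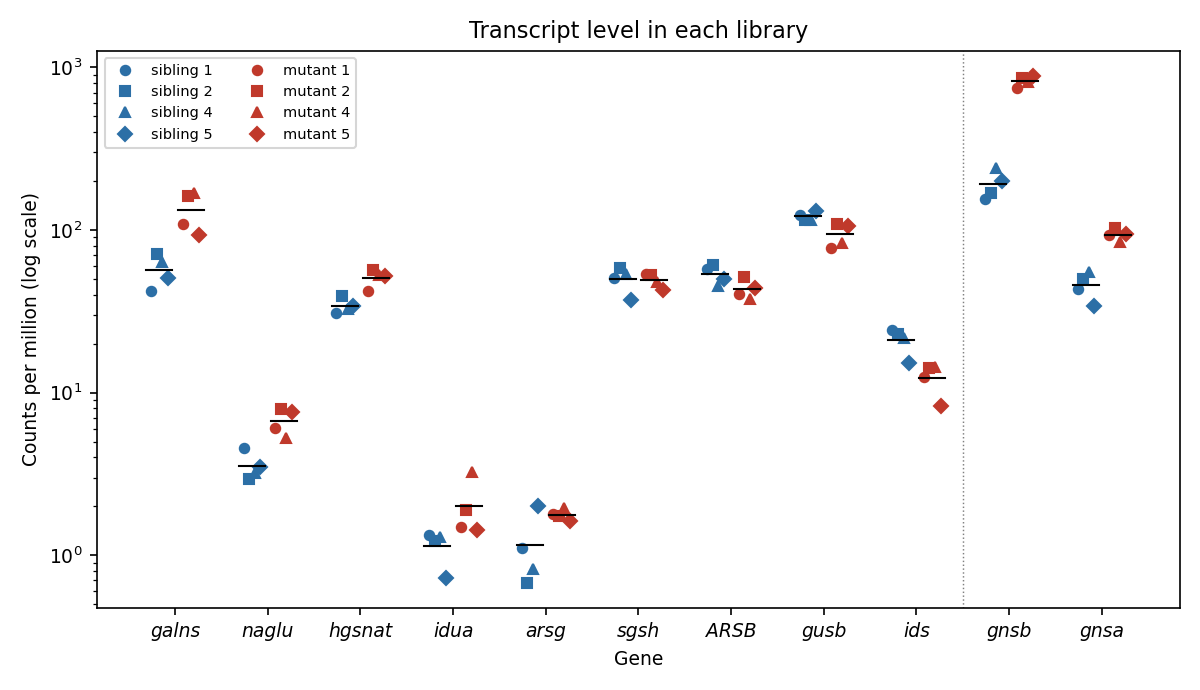
Level of each member, and of gnsb and gnsa to the right of the dotted line, in CPM on a log axis. Each symbol is 1 library (its shape gives the library number, siblings in blue, mutants in red) and black bars are means of 4 libraries. In galns, naglu, hgsnat, idua, gnsb and gnsa all mutant libraries lie above all sibling libraries, in gusb and ids all lie below, and in sgsh, ARSB and arsg they overlap.

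Of the 5 sulfatases among the members, galns (ENSDARG00000051853, GRCz11 chromosome 7, 55543351 to 55633475, minus strand) had the largest log2 fold change, below that of the sulfatase gene gnsb, which is not a member. It encodes the enzyme that takes the 6-sulfate from galactose and N-acetylgalactosamine in keratan and chondroitin sulfate, and its loss in humans causes Morquio syndrome. Its level was 109, 163, 169 and 93.5 CPM in mutants and 42.2, 71.0, 63.6 and 50.4 CPM in siblings. The lowest mutant library stood above the highest sibling library. The mean rose from 56.8 ± 12.9 to 134 ± 37.9 CPM (SD, n = 4), a log2 fold change of 1.23 (SE 0.231, 95% confidence interval 0.72 to 1.75, adjusted p = 0.00378). Mutant libraries 2 and 4, in which galns was highest, were also those with the least muscle transcript. Without these libraries the log2 fold change was 0.86 (adjusted p = 0.0252), and without mutant libraries 1 and 5 it was 1.63 (adjusted p = 0.00156). Both alternatives were chosen after the data were seen. They leave out the libraries with the highest and the lowest galns, so the smaller and the larger value follow from the choice. Whether muscle transcript has a part in the level of galns was not tested.

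ids (ENSDARG00000071699, chromosome 14, 20869618 to 20891769, minus strand) encodes iduronate 2-sulfatase, which opens the breakdown of heparan and dermatan sulfate and is lost in human Hunter syndrome. It was the only member called lower in the test above. In the fit that blocks on library number gusb and ARSB were lower too. For ids, mutants had 12.5, 14.2, 14.3 and 8.30 CPM and siblings 24.4, 23.0, 21.6 and 15.3 CPM. Library number 5 was the lowest of each genotype, and still no mutant library reached a sibling library. The log2 fold change was -0.77 (SE 0.215, 95% confidence interval -1.26 to -0.29, adjusted p = 0.0239). This call was lost when any of 5 single libraries was left out, with adjusted p of 0.0562 and 0.0555 without mutant library 1 or 5, and 0.0686, 0.0726 and 0.0544 without sibling library 1, 2 or 4. The log2 fold change was then -0.78 and -0.58, and -0.69, -0.70 and -0.76, in the same order. It was also lost without mutant libraries 1 and 5 together, in which ids was lowest (log2 fold change -0.48, adjusted p = 0.162). The gene lies 6.78 Mb from rraga on the same chromosome. Among the 178 tested genes within 10 Mb of rraga 33.7% passed the test in either direction, beside 28.4% of all genes, and the part of this region in the result was not tested.

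ARSB (ENSDARG00000108788, chromosome 21, 76739 to 86394, plus strand) encodes arylsulfatase B, which removes the 4-sulfate of N-acetylgalactosamine in dermatan and chondroitin sulfate and is lost in Maroteaux-Lamy syndrome. Its mutant libraries held 40.6, 51.5, 37.7 and 44.2 CPM and its sibling libraries 57.4, 61.2, 45.0 and 50.2 CPM. Each mutant library was below the sibling library of its own number, although the groups overlapped. The log2 fold change of -0.30 (95% confidence interval -0.61 to 0.017) did not pass (adjusted p = 0.148). It passed when the library number was a block (adjusted p = 0.0447) and when libraries were scaled by size alone (adjusted p = 0.0359).

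sgsh (ENSDARG00000032087, chromosome 22, 11520249 to 11532760, plus strand) encodes sulfamidase, which takes the sulfate from the nitrogen of glucosamine in heparan sulfate and is lost in a form of Sanfilippo syndrome. It stood at 53.9, 52.7, 48.1 and 43.0 CPM in mutants and 50.6, 58.2, 54.0 and 37.2 CPM in siblings. The groups lay across each other, with a log2 fold change of -0.017 and a 95% confidence interval from -0.36 to 0.32 (adjusted p = 0.946), and its sign changed with the scaling. The gene overlaps slc26a11, of the sulfate transporter family, over 157 bases where both start, on opposite strands, and slc26a11 held 281% of the count of sgsh. Whether counting used the strand was not given in the sources used here, so reads in the overlap cannot be assigned to one of them. The level of slc26a11 was 157 ± 17.2 CPM in mutants and 125 ± 17.3 CPM in siblings, and it did not pass either (adjusted p = 0.0761).

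arsg (ENSDARG00000101715, chromosome 12, 20583552 to 20600378) encodes arylsulfatase G, which in the mouse removes the rare 3-sulfate of glucosamine in heparan sulfate. Levels were low, at 1.79, 1.75, 1.95 and 1.63 CPM in mutants and 1.11, 0.680, 0.822 and 2.00 CPM in siblings. The mutant libraries lay close together, and sibling library 5 stood above all of them. With 20 to 61 counts per library the log2 fold change of 0.62 had a 95% confidence interval from -0.26 to 1.51 (adjusted p = 0.278).

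Among the glycosidases, which cut the sugars themselves, naglu (ENSDARG00000030156, chromosome 24, 36303637 to 36316104) rose. It encodes the enzyme that removes N-acetylglucosamine from heparan sulfate, lost in another form of Sanfilippo syndrome. Its level was 6.06, 7.98, 5.30 and 7.57 CPM in mutants and 4.56, 2.92, 3.21 and 3.48 CPM in siblings. All mutant libraries were higher than all siblings, mutant library 4 by the smallest margin. The log2 fold change was 0.92 (SE 0.236, 95% confidence interval 0.39 to 1.45, adjusted p = 0.0170). Without mutant library 2 the call was lost, with a smaller log2 fold change (0.83, adjusted p = 0.0504). It was also lost without mutant libraries 2 and 4 (0.96, adjusted p = 0.0555) or 1 and 5 (0.98, adjusted p = 0.0620). There the log2 fold change was no smaller than over all libraries.

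gusb (ENSDARG00000063126, chromosome 5, 2066262 to 2112030) encodes beta-glucuronidase, which takes glucuronic acid from several chains and is lost in Sly syndrome. Mutants had 77.1, 110, 83.6 and 105 CPM and siblings 123, 116, 116 and 130 CPM. No mutant library reached the siblings, but the lowest sibling and the highest mutant library were close. The log2 fold change was -0.37 (SE 0.130, 95% confidence interval -0.66 to -0.079) and did not pass (adjusted p = 0.0600). It did pass with limma-voom (adjusted p = 0.0391), under a stricter filter on low counts (0.0212), scaled by library size alone (0.0151), with mutant library 2 left out (0.0397) and in the fit that blocks on library number (0.0354).

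idua (ENSDARG00000062904, chromosome 5, 9046813 to 9069365) encodes alpha-L-iduronidase, which acts after iduronate 2-sulfatase on the same sugar and is lost in Hurler syndrome. It was at 1.497, 1.89, 3.27 and 1.43 CPM in mutants and 1.34, 1.22, 1.29 and 0.722 CPM in siblings. All mutant libraries were above all siblings, but mutant libraries 1 and 5 exceeded sibling library 1 only slightly. At 22 to 84 counts per library the log2 fold change of 0.82 had a 95% confidence interval from -0.051 to 1.69 and did not pass (adjusted p = 0.149).

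hgsnat (ENSDARG00000077804, chromosome 1, 15226268 to 15257315) is the one member that builds rather than cuts. Its product sits in the lysosomal membrane and adds an acetyl group to bared glucosamine, which the N-acetylglucosaminidase encoded by naglu can then remove. The level was 42.2, 56.5, 52.6 and 52.0 CPM in mutants and 30.9, 39.2, 32.5 and 34.3 CPM in siblings. Mutants were higher in all 4 libraries, with a log2 fold change of 0.57 (SE 0.128, 95% confidence interval 0.28 to 0.86, adjusted p = 0.00901). It did not pass scaled by library size alone (log2 fold change 0.40, adjusted p = 0.0543). That scaling set the median of all tested genes at -0.26 and the share of called genes that were higher at 34.7%, against -0.09 and 51.1%. hgsnat also did not pass without mutant libraries 2 and 4, in which it was highest (0.48, adjusted p = 0.0661).

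**Figure D2:**
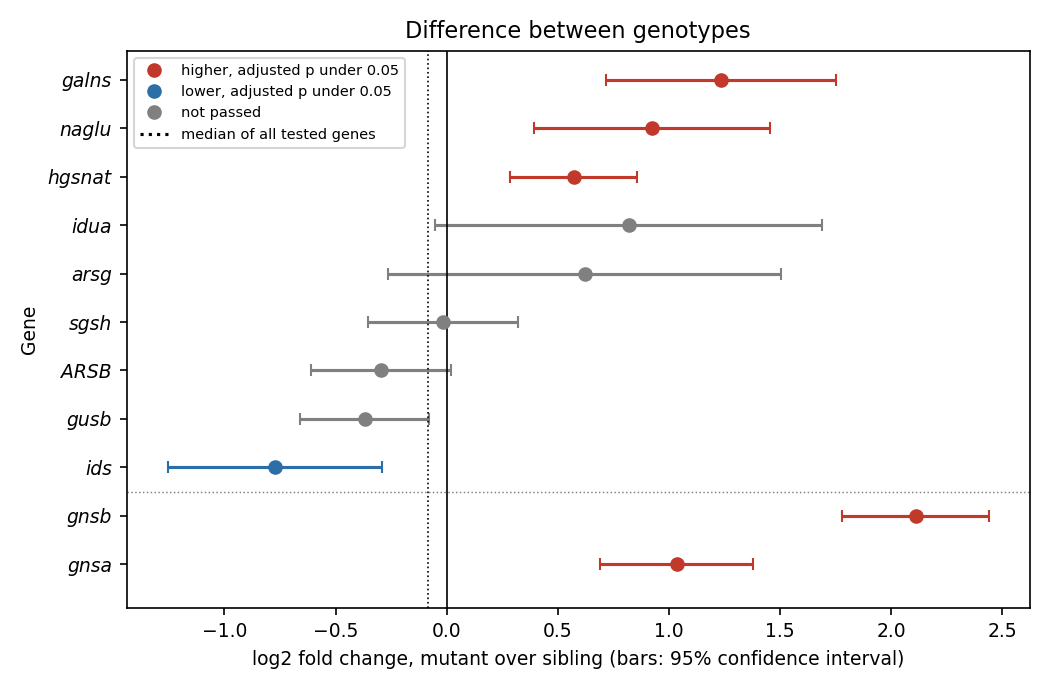
log2 fold change of each member, and of gnsb and gnsa below the dotted line, with 95% confidence intervals from edgeR's quasi-likelihood fit (4 mutant and 4 sibling libraries). Red marks genes higher and blue genes lower at an adjusted p under 0.05, and the vertical dotted line is the median of all tested genes. The members run from -0.77 for ids to 1.23 for galns.

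The enzyme known in humans as N-acetylglucosamine-6-sulfatase, which acts on heparan and keratan sulfate and is lost in a further form of Sanfilippo syndrome, is encoded by gnsa and gnsb in the zebrafish table. gnsb (ENSDARG00000098296, chromosome 10, 45031398 to 45047242) stood at 752, 856, 812 and 884 CPM in mutants and 156, 170, 240 and 200 CPM in siblings. Even the highest sibling library was far below every mutant library. gnsa (ENSDARG00000023766, chromosome 4, 4509996 to 4524284) had 92.6, 104, 84.3 and 94.7 CPM in mutants and 43.4, 50.02, 55.6 and 34.2 CPM in siblings. The log2 fold change was 2.11 (SE 0.146, adjusted p = 1.5e-05) for gnsb and 1.03 (SE 0.153, adjusted p = 0.00110) for gnsa. The pair may share reads, and a reference table of gene names lists gnsa under the human symbol, so the name gns does not by itself pick one copy.

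The members can also be grouped by the chain they act on. Of 7 that act on heparan sulfate, naglu and hgsnat rose, ids fell and sgsh, arsg, gusb and idua did not pass, with a median log2 fold change of 0.57. Of 5 that act on dermatan or chondroitin sulfate, galns rose, ids fell and ARSB, gusb and idua did not pass, and the median log2 fold change was -0.30. galns is the 1 member for keratan sulfate. By the kind of reaction, 1 of 5 sulfatases rose and 1 fell, 1 of 3 glycosidases rose and 0 fell, and the acetyltransferase rose. Groups this small, beside the 28.4% of all tested genes that passed, do not set a chain or a kind of reaction apart. In the fit that blocks on library number gusb and ARSB were also lower, which makes 3 of the 5 members for dermatan or chondroitin sulfate lower. That fit called 16.6% of all tested genes lower. Of these members, ids and gusb also act on heparan sulfate, so the fit does not set 1 chain apart either. Added together, the members took 345, 459, 416 and 357 CPM in mutants and 336, 373, 338 and 324 CPM in siblings. The sums overlapped between the genotypes, with means of 394 ± 53.3 and 343 ± 21.1 CPM (SD, n = 4). Scaled by library size alone the means were 370 and 364 CPM. With gnsa and gnsb added the sums were 1314 ± 95.04 and 580 ± 42.7 CPM, a ratio of 2.27, and every mutant library lay above every sibling library.

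Columns that share a number also shared part of their departure from the genotype means, so each mutant library was also set against the sibling library of its number. On the log2(CPM + 0.5) scale, galns was higher in the mutant library of every pair, by 0.88 to 1.402, hgsnat by 0.45 to 0.69, naglu by 0.37 to 1.31 and idua by 0.12 to 1.07. The difference of ids was -0.94 to -0.58, that of ARSB -0.49 to -0.18 and that of gusb -0.68 to -0.076. All 4 pairs thus pointed the same way for these genes too. Except in ARSB, the libraries of all these genes did not overlap between the genotypes. Any other pairing would point the same way there, so the pairs add nothing to the direction. How many of all tested genes had 4 such pairs was not counted. arsg was higher in 3 of 4 pairs and sgsh in 2 of 4.

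**Figure D3:**
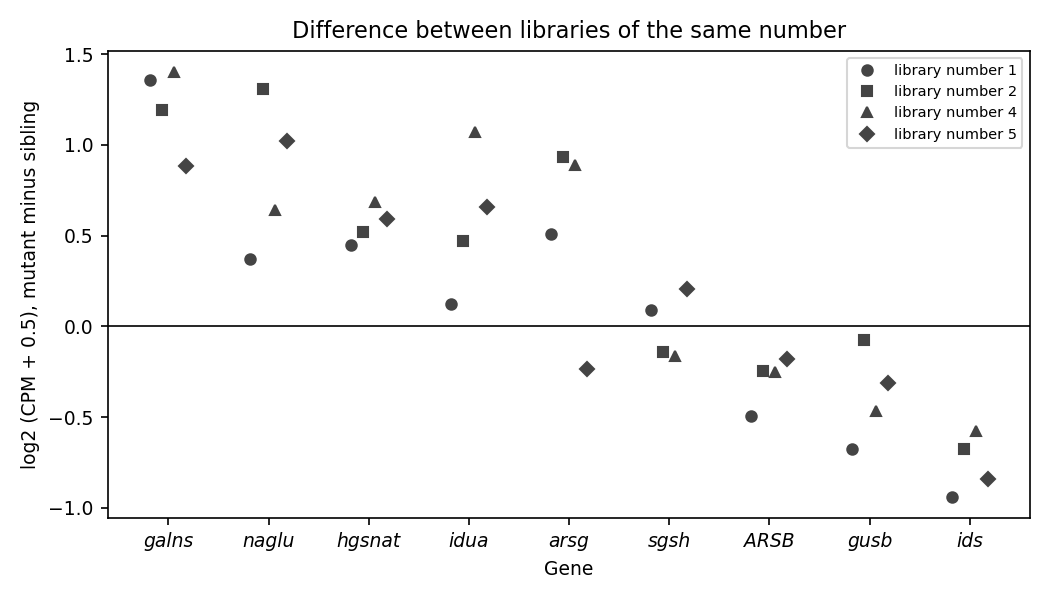
Difference in log2(CPM + 0.5) between the mutant and the sibling library of the same number, for each member (4 pairs, 1 symbol each). The symbols of galns, naglu, hgsnat and idua are all above 0, those of ids, gusb and ARSB all below, and those of arsg and sgsh lie on both sides.

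Levels of different genes were compared per length, as CPM per kilobase of the gene length given in the table. In siblings the order of the members' levels ran from ARSB at 45.5 ± 6.17 CPM per kilobase through galns (28.0 ± 6.36), sgsh (25.6 ± 4.64), gusb (22.5 ± 1.32), ids (9.21 ± 1.77), hgsnat (5.65 ± 0.598), naglu (0.969 ± 0.196) and arsg (0.499 ± 0.257) to idua at 0.226 ± 0.0564 (SD, n = 4). The ranges of galns and sgsh and of sgsh and gusb overlapped, and each of these pairs kept its order in 3 of 4 libraries. The ranges of naglu and arsg overlapped too, although naglu was above arsg in 4 of 4 libraries. ARSB has the shortest gene model among the members, 1176 bases, and its place in the order rests on that length.

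In mutants galns came first at 65.7 ± 18.7 CPM per kilobase, before ARSB at 37.0 ± 5.07. sgsh (25.3 ± 2.54) and gusb (17.4 ± 2.96) followed. hgsnat (8.39 ± 1.00) now stood above ids (5.39 ± 1.23). At the low end came naglu at 1.84 ± 0.345, arsg at 0.770 ± 0.0569 and idua at 0.400 ± 0.170. Every neighbouring pair in this order had separate ranges across the 4 mutant libraries. The order of the genotypes thus differed in the places of galns and ARSB and of hgsnat and ids. On the same scale gnsb was above every member in both genotypes, at 427 ± 29.9 in mutants and 99.0 ± 19.2 in siblings, and gnsa was at 35.3 ± 2.98 and 17.2 ± 3.46.

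**Figure D4:**
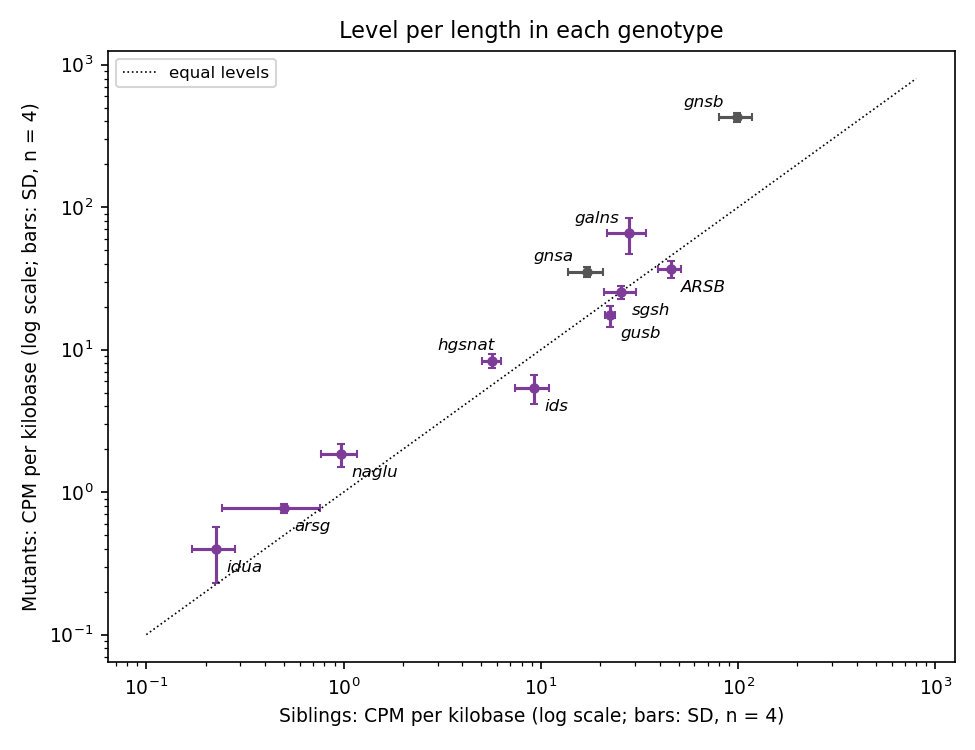
Level per length of the members (purple) and of gnsa and gnsb (grey) in siblings (horizontal) and mutants (vertical), in CPM per kilobase on log axes. Points are means and bars SDs of 4 libraries, and the dotted line marks equal levels. The means of galns, hgsnat, naglu, arsg, idua, gnsb and gnsa lie above the line, those of ids, gusb and ARSB below it and that of sgsh close to it. The members span from under 1 for idua and arsg to 65.7 for galns in mutants.

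The members work beside other degrading enzymes and depend on a route that delivers them to the lysosome. Of 18 tested genes for other enzymes that cut these chains or belong to the same sulfatase and glycosidase families, 9 rose and 1 fell. The 9 include gnsb and gnsa, already described above. Over all tested genes 14.5% were higher and 13.9% lower. The median log2 fold change of the list was 0.75 beside -0.09 for all tested genes. This list and those below were chosen with earlier results of these data known. Beside gnsb and gnsa, the genes that rose included hpse, for heparanase, which cuts heparan sulfate within the chain. Its level was 43.3 ± 3.38 against 17.7 ± 1.85 CPM (log2 fold change 1.29, adjusted p = 9.0e-05). hexb, for the beta subunit of hexosaminidase, which removes an amino sugar from the chain end and is also on the microglia marker list, was at 1068 ± 127 against 559 ± 47.2 CPM (0.93, adjusted p = 4.0e-04). hexa and glb1, for the alpha subunit and for beta-galactosidase, were chosen after their values were seen and rose as well, to 55.7 ± 12.4 from 27.2 ± 7.71 CPM and to 195 ± 40.5 from 112 ± 19.8 CPM. The 1 gene of the list that fell, named after its value was seen, was sulf2b, an extracellular sulfatase gene outside the lysosome, at 5.83 ± 1.45 against 12.4 ± 2.66 CPM.

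For enzyme maturation and sorting, 7 of 14 tested genes rose and 0 fell with edgeR (median log2 fold change 0.67). In the same test 14.5% of all tested genes were higher and 13.9% lower. In this list 0 were lower at an unadjusted p under 0.05, with DESeq2 or with limma-voom. gnptab, for the subunits of the enzyme that starts the mannose 6-phosphate tag of lysosomal enzymes, had 280 ± 30.5 against 111 ± 5.02 CPM (log2 fold change 1.34, adjusted p = 2.6e-05). sort1b, for the sorting receptor sortilin, had 243 ± 28.1 against 109 ± 19.0 CPM (1.15, adjusted p = 4.3e-04). cln6a, for a membrane protein of the endoplasmic reticulum linked to neuronal ceroid lipofuscinosis, had 46.4 ± 5.91 against 27.1 ± 1.49 CPM (0.77, adjusted p = 0.00148). sumf1, named after its values were seen, encodes the enzyme that activates all sulfatases. It stood at 11.4, 8.64, 20.6 and 11.5 CPM in mutants and 10.5, 3.40, 14.8 and 9.45 CPM in siblings and did not pass (adjusted p = 0.465).

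**Figure D5:**
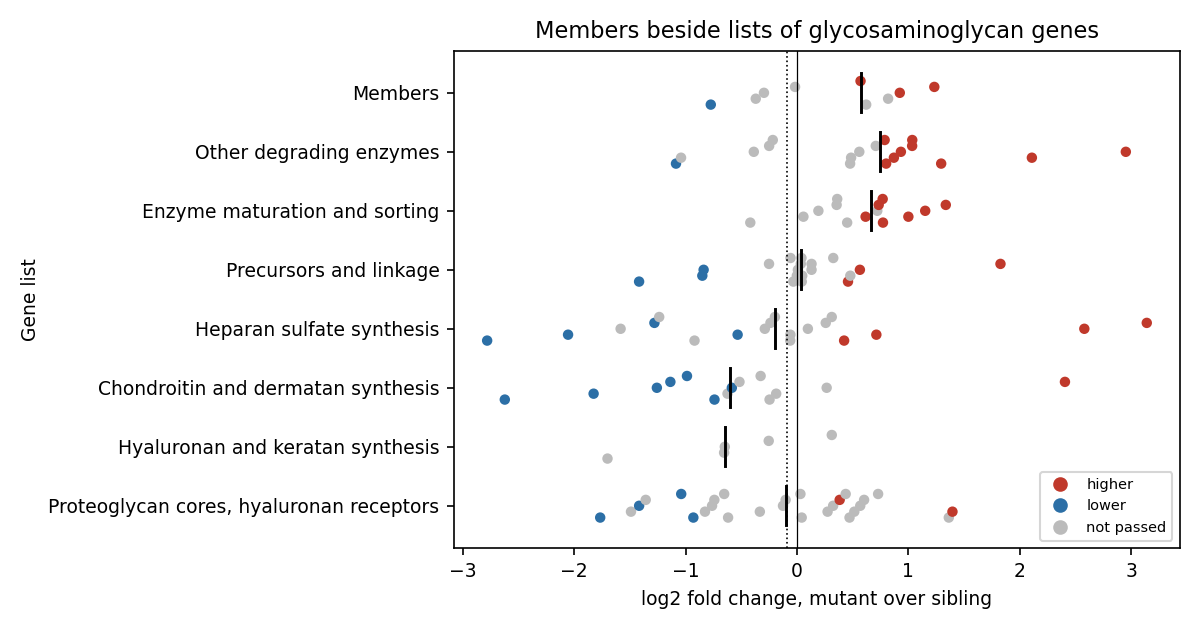
log2 fold change of the members and of the tested genes of 7 lists around glycosaminoglycan turnover (1 dot per gene, black bars are medians, dots are spread vertically only to separate them). Red dots are higher and blue dots lower in mutants at an adjusted p under 0.05, and the vertical dotted line is the median of all tested genes. The list for other degrading enzymes, which holds gnsb and gnsa, has a median of 0.75. The list for enzyme maturation and sorting has one of 0.67, and that for chondroitin and dermatan synthesis one of -0.60.

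Genes that build the chains differed in both directions. Of 14 tested genes of chondroitin and dermatan sulfate synthesis 7 fell and 1 rose (median log2 fold change -0.60). Among all tested genes 13.9% were lower and 14.5% higher. dse, for the epimerase that turns chondroitin into dermatan sulfate, was at 9.79, 36.0, 23.3 and 10.5 CPM in mutants and 83.7, 145, 168 and 92.1 CPM in siblings (-2.62, adjusted p = 0.00220). Numbers 2 and 4 were the higher libraries in each genotype. chsy1, for a chondroitin synthase, fell by 1.14 on the log2 scale (adjusted p = 0.00121). The gene that rose, ust, encodes a sulfotransferase for uronic acid and went from 12.6 ± 1.14 to 66.8 ± 14.6 CPM (2.41, adjusted p = 1.9e-05). Without mutant libraries 1 and 5 only 2 genes of the list were called lower, where 1529 of 17286 tested genes were lower. Without mutant libraries 2 and 4, 5 genes of the list were lower, where 1529 of 17635 tested genes were lower. Over all libraries 2233 of 16086 were lower.

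Of 19 tested genes of heparan sulfate synthesis 4 rose and 4 fell (median -0.20), where 14.5% of all tested genes were higher and 13.9% lower. The 6-O-sulfotransferase gene hs6st1a fell from 7.74 ± 1.09 to 1.86 ± 0.483 CPM, and the 3-O-sulfotransferase gene hs3st3b1b from 1.15 ± 0.604 to 0.165 ± 0.0679 CPM. ndst3, for an N-sulfating enzyme, rose from 0.200 ± 0.135 to 1.82 ± 0.558 CPM. Low counts limit hs3st3b1b (3 to 52 per library) and ndst3 (1 to 67). Without mutant libraries 1 and 5 only 2 genes of this list were lower, and hs3st3b1b did not pass (adjusted p = 0.0593). Without mutant libraries 2 and 4, 4 genes of this list were lower. In each of these settings 1529 of all tested genes were lower, against 2233 over all libraries. Of 19 genes for sugar donors and the linkage to the core protein 3 rose and 3 fell (median 0.04), a share near the 28.4% of all tested genes that passed, and 1 was higher when any one of mutant libraries 1, 2 and 4 or sibling libraries 1 and 5 was left out. gale, for the epimerase that makes the donors of galactose and N-acetylgalactosamine, rose from 70.8 ± 31.6 to 251 ± 69.3 CPM. slc35d1a and slc35d1b, for sugar donor transporters, fell by 0.84 and 0.85 on the log2 scale. In hyaluronan and keratan sulfate synthesis 0 of 5 tested genes passed with edgeR, as with DESeq2 and limma-voom, and 0 had an unadjusted p under 0.05. chst2a, for a sulfotransferase, was at 8.28 ± 4.12 against 13.0 ± 2.56 CPM and passed in the fit that blocks on library number (adjusted p = 0.0260) and without mutant library 5 (0.0138). 1 gene of the list was lower without mutant library 2 or 5 or sibling library 4. Neither chst2b, of the same family, at 0.262 ± 0.253 against 0.878 ± 0.514 CPM, nor the glycosyltransferase gene b3gnt7, at 0.752 ± 0.256 against 1.18 ± 0.455 CPM, passed.

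Among 27 tested genes for proteoglycan core proteins and hyaluronan receptors 2 rose and 4 fell, no larger a share than the 28.4% of all tested genes that passed, and the median of -0.10 was close to the -0.09 of all tested genes. Without mutant library 4 or 5 or sibling library 1, 4 or 5 only 1 was higher, without sibling library 1 or 5 only 2 were lower, and scaled by library size alone 0 were higher with edgeR (4 with DESeq2 under its own scaling, and 4 at an unadjusted p under 0.05 under TMM scaling). sdc2, for the heparan sulfate proteoglycan syndecan-2, fell from 141 ± 12.6 to 68.6 ± 4.37 CPM (log2 fold change -1.04, adjusted p = 1.1e-04). srgn, for serglycin, the proteoglycan of blood cell granules, stood at 433, 365, 394 and 383 CPM in mutants and 327, 305, 286 and 291 CPM in siblings (0.38, adjusted p = 0.0138), and did not pass scaled by library size alone (adjusted p = 0.134). stab1, for the scavenger receptor stabilin-1, fell by 0.93 on the log2 scale (adjusted p = 0.0158), and did not pass without mutant libraries 1 and 5 (adjusted p = 0.148).

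The pattern of the members over the 8 libraries was summarised as the mean of their standardised log2(CPM + 0.5) values. The 5 genes whose levels were most like it by Pearson's r were rpn1, for a subunit of the oligosaccharyltransferase (0.97), si:ch73-376l24.2 (0.97), ppp3cca, for a catalytic subunit of calcineurin (0.96), WHAMM, for an activator of actin branching (0.95), and CABZ01049607.1 (0.95). These values describe 8 libraries of 2 genotypes that share their sequencing and scaling. Members that rose and members that fell partly cancel in the mean, so it is not a pattern that each member follows. In mutant libraries 1 and 5 the mean (-0.10 and -0.069) was below that in sibling library 2 (0.021). None of the 5 genes passed the test between the genotypes, and si:ch73-376l24.2 overlaps gsnb on the opposite strand.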

How the data were processed

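Raw, unnormalized counts of reads for each Ensembl gene were deposited by the authors in a table with 1 column per library, per the file headers. The submitters' processing notes list the tools featureCounts 1.5.0, HISAT2 2.0.5 and StringTie 1.3.3b, with GRCz11 as build, and give no roles. Libraries were made from polyadenylated RNA using the SMART-Seq v4 kit for low input, per the labels' protocols. Strand use in counting was not given in the sources used here. This table holds 16 further columns of per-library values, which were not used. Gene lengths came from the table.

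Columns were assigned to a genotype by name. Their numbers, 1, 2, 4 and 5, differ from those in the sample titles. Same-numbered libraries deviated together from their genotype means (correlations across genes of 0.160 to 0.373, against -0.231 to 0.0013 for different numbers), so the numbers were taken as pairs. Departures from a genotype mean cancel across its libraries. Low values for different numbers thus follow from high ones for the same number and are not separate evidence. The pairing rests on the column names and the check, not on the labels. The test leaves the pairing out, and a fit with the number as a block was an alternative. Within each genotype no library repeated another (chi-square per degree of freedom 50.1 to 105). Mutant libraries were not compared with sibling libraries in this check.

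Low genes were removed by filterByExpr (minimum count 10), libraries were scaled by TMM, and edgeR 4.0.16 in R 4.3.3 gave the tests (quasi-likelihood, two-sided, Benjamini-Hochberg over all tested genes). The standard error is the log2 fold change divided by the square root of F. CPM uses TMM-scaled library sizes, and log2 values add 0.5 CPM. Alternatives used limma 3.58.1 and DESeq2 1.42.0. The procedure was also run on simulated counts, with far fewer changed genes than were called here and with libraries that were not paired. That run does not show how the test behaves on these data. The members and lists were chosen with earlier results of these data known. Named genes were all members, rraga, the 3 genes with the smallest p of each glycosaminoglycan list, and the 5 most like the members' pattern. Of the 2 most abundant genes of each marker list, also named by that rule, only those of macrophages, epithelium and neutrophils are given. Genes outside the rule, such as mpeg1.1, sulf2b, hexa, glb1, sumf1 and the hyaluronan genes, were chosen after their values were seen, and slc26a11 because it overlaps sgsh. Lists hold genes by the table's symbols, and the marker lists covered macrophages, microglia, muscle, epithelium, neutrophils, neurons and glia, connective tissue, endothelium, lens and retina, liver with gut and pancreas, and erythrocytes.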

Additional observations from a re-analysis of the deposited data

Results flagged for a closer look

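In 1 of 68 groups of 4 libraries examined for a value far from the others, 1 library stood apart. This was chst2b, a sulfotransferase gene of keratan sulfate synthesis, for which sibling library 5 held 1.64 CPM while the other siblings held 0.522 to 0.704 CPM. Chance gives such a value in about 1 of 20 groups. The groups of gnsb count again among the 68, because gnsb is also on the list of other degrading enzymes.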

How the results depend on the processing

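galns, gnsa and gnsb passed the test in the same direction under all 18 alternatives. sgsh, which was not called, changed sign with median-of-ratios factors (0.027), without the filter (0.031), with DESeq2 (0.027), with limma-voom (0.025) and without mutant libraries 1 and 5 (0.095), and ran from -0.11 to 0.090 with single libraries left out. Against a minimum fold of 1.5 (glmTreat) 861 genes were higher and 742 lower, against 2334 and 2233, with 1 member higher (galns) and 0 lower, and 11 higher and 5 lower among the 116 tested genes of the 7 lists, against 26 and 19. 3 members were lower with replicate number as a block (ids, gusb and ARSB), where 2673 of 16086 tested genes were lower. 3 were lower scaled by library size alone (3123 of 16086 genes), 2 with at least 5 CPM in 4 libraries (2082 of 9580) and 2 with limma-voom (2429 of 16086). With single libraries left out 0 to 2 members and 1671 to 2093 genes were lower. Without mutant libraries 2 and 4, 1 member was higher, where 1757 of 17635 tested genes were higher, and 16 list genes were lower. Without 1 and 5, 0 members and 10 list genes were lower, where 1529 of 17286 tested genes were lower. Matching symbols letter for letter gave 3 higher and 1 lower. Beside gusb, ARSB and chst2a, the block changed no other call among the members and the named list genes. The cause of these changes was not tested. Counts of 20 to 84 per library limit arsg and idua.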

Other observations

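Genes of hyaluronan turnover, picked here after their values were seen, moved in part like the members that rose. hyal1, for the lysosomal hyaluronidase, was at 68.0, 90.3, 66.5 and 87.7 CPM in mutants and 37.1, 52.7, 41.6 and 49.6 CPM in siblings, with no overlap (log2 fold change 0.79, adjusted p = 0.00504, edgeR). hyal2a, for a relative known in mammals at the cell surface, was at 7.49, 6.01, 8.57 and 10.9 CPM in mutants and 0.456, 0.408, 0.509 and 2.86 CPM in siblings (2.95, adjusted p = 0.00791). Library 5 was the highest of each genotype. Neither cd44a nor cd44b, for the hyaluronan receptor CD44, passed (15.9 ± 3.09 against 20.1 ± 4.32 CPM and 19.3 ± 3.50 against 18.9 ± 3.40 CPM). stab1, listed above with the hyaluronan receptors, fell (log2 fold change -0.93, adjusted p = 0.0158, edgeR). Any other hyaluronidase gene of the lists is not given here. The hyaluronan synthase genes has1 and has2 had 0 to 47 and 0 to 56 counts per library and were not tested.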
